A study of Mus musculus with 24 samples.

Results

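The 2 mature miRNAs cut from the mouse miR-574 hairpin, mmu-miR-574-5p and mmu-miR-574-3p (miR-574-5p and miR-574-3p from here on), were followed across 24 arrays, 2 of the 1881 mouse miRNAs that the array measures. They were chosen by their names, with their lens ratios in the iris and the RPE/choroid already known, so that those ratios are given as a description and carry no test. Each array measured total RNA of 1 tissue of C57BL/6J male mice (cornea, iris, lens, retina, the tissue labelled choroid and called RPE/choroid here, sclera, SCN or LGN) in 1 of 3 lens groups. The normal group wore no lens, another group is labelled 0 D, a lens without power, and the −30 D group wore a −30 diopter lens, which induces myopia, on the right eye from 3 weeks of age for 3 weeks. For the normal and −30 D groups, RNA of 3 mice was mixed for each ocular tissue. The sources used here do not describe how the 0 D group, the SCN or the LGN were collected. Each tissue and lens group has 1 array, and all 8 arrays of a lens group lie on 1 slide, and the effects of the lens and of the slide cannot be told apart.

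A miRNA is cut from a hairpin precursor as a short duplex. A strand from either arm can be loaded into an Argonaute protein, where bases 2 to 8, the seed, select target mRNAs by pairing. Both arms of a hairpin come from the same transcript, and their levels can still part, because the strands are loaded and degraded separately. miR-574-5p is known for its GU-rich sequence, which is bound by RNA-binding proteins that recognise GU repeats.

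The hairpin lies on chromosome 5 of GRCm38.p6, and its sequence from RefSeq is shown with both arms in capitals because the base composition of the arms returns in the values below. The order is the 5p arm first and the 3p arm second.
Mir574 hairpin: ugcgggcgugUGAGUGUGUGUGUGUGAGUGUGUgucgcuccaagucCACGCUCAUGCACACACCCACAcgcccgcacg
The mature miRNAs follow, with the seed in capitals.
miR-574-5p: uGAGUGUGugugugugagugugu
miR-574-3p: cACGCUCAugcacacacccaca
The hairpin spans chr5:64970318-64970395 on the plus strand, miR-574-5p chr5:64970328-64970350 and miR-574-3p chr5:64970364-64970385. The hairpin starts 243 bases after the start of Fam114a1 (chr5:64970075-65041901), which runs on the same strand, and it also overlaps Tlr6 (chr5:64953092-64970942), a Toll-like receptor gene on the opposite strand. Exons and introns were not used here. In miR-574-5p, 21 of 23 bases are G or U, the highest share among the 1608 array miRNAs matched to a RefSeq sequence. In miR-574-3p, 18 of 22 bases are C or A, and 4 of the 1608 have at least that share, miR-574-3p included. No other miRNA among the 1608 has the seed of either arm.

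Between 129 and 249 of the 1881 miRNAs were detected on an array (6.86% to 13.2%), a miRNA being detected when at least 1 of its probes lay above 3 of its errors. The signal of a miRNA is the sum over those probes, brought to a common 75th percentile of the 79 miRNAs found on all 24 arrays. The log2 scaling factors ran from −1.01 to 1.65. Marker miRNAs were set against the labels. The summed signal of the 3 retina and photoreceptor miRNAs was 14498 to 16170 in the retina and at most 1436 in any other tissue. The 3 neuronal miRNAs summed to 2737 to 3388 in the SCN and LGN, to 10999 to 12258 in the retina and to at most 1184 in any other tissue. They thus do not set the brain regions apart from the retina. The surface epithelium miRNAs miR-205-5p and miR-203-3p summed to 957 to 1179 in the cornea and lay between 4.53 and 8.06 in the iris, and neither was detected in the other 6 tissues. The pigment epithelium and iris list (miR-204-5p and miR-211-5p) was no guide to the iris or RPE/choroid label, since its sum was 1227 to 1377 in the lens, 1067 to 1211 in the iris and 830 to 1009 in the RPE/choroid.

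miR-574-5p was detected on all 24 arrays. Its signal was highest in the sclera, with a geometric mean over the 3 lens groups of 113, followed by the RPE/choroid (67.9), the lens (52.6), the cornea (51.9) and the iris (50.4). The retina was next at 20.7, and the SCN and LGN were lowest at 11.3 and 5.91. Among these 5 tissues each overlapped its neighbour in this order over the 3 lens groups, while the sclera (69.7 to 169) lay above the whole range of the lens (45.1 to 57.6) and of the iris. From the iris (46.2 to 56.4) to the retina (18.9 to 21.9), from the retina to the SCN (8.85 to 14.95) and from the SCN to the LGN (4.82 to 7.34), the ranges did not overlap. All LGN values and the normal SCN value held only 1 of 2 probes, however. With both probes summed, the SCN (10.95 to 14.95) and the LGN (7.31 to 11.02) did overlap. The tissue fit below was not run with both probes summed.

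The tissue levels of miR-574-5p were tested with limma in a fit of tissue and lens group over the 197 miRNAs detected on at least 12 arrays. The spread is what the sum of a tissue and a lens term leaves over. No lens group has a second array of a tissue, so the spread between like arrays is not measured. Without the lens term the SE of each contrast was 0.27 in place of 0.22. The moderated F test over the 8 tissues gave an adjusted p of 8.61e-10 in limma, and 100% of the 197 miRNAs passed at an adjusted p of 0.05, so that a tissue difference as such was common to all. Against the mean of the other 7 tissues, miR-574-5p was 2.02 ± 0.22 (SE) log2 units higher in the sclera (limma, adjusted p 2.53e-07), where 82.2% of the miRNAs passed. It was 1.18 higher in the RPE/choroid (adjusted p 0.000145 by limma, with 65.5% passing). The values for the lens (0.76), cornea (0.74) and iris (0.69) also passed (adjusted p 0.00401, 0.00542 and 0.00859 in limma, with 77.2%, 74.6% and 74.6% of miRNAs passing). These last 3 contrasts rested on the low SCN and LGN, as among the 6 ocular tissues alone they were −0.01, −0.03 and −0.08 and did not pass (limma adjusted p 0.984, 0.912 and 0.759). Among the ocular tissues the RPE/choroid contrast was 0.43 (adjusted p 0.147 by limma), and the sclera remained 1.31 higher (adjusted p 0.000314 by limma). The contrast was −0.78 in the retina, −1.77 in the SCN and −2.84 in the LGN (limma adjusted p 0.00336, 7.43e-07 and 1.74e-09, with 79.7%, 82.2% and 76.1% passing). Without scaling, the cornea, lens and retina contrasts were −0.19, −0.88 and 0.022. Without the 0 D arrays those of the cornea, lens and retina (0.59, 0.71 and −0.68) no longer passed in limma, and without the −30 D arrays those of the cornea and retina (0.47 and −0.64) did not. The fit sets the undetected miRNAs of an array at its lowest detected signal, which did not touch the contrast values of miR-574-5p. Its SE and adjusted p draw on all 197 miRNAs and did move. With undetected miRNAs at 0.1 the iris contrast had a limma adjusted p of 0.0133, and all 8 contrasts still passed.

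miR-574-3p was detected on 11 of 24 arrays, under the 12 that the main fit required, and was not tested there. An alternative limma fit took the 352 miRNAs detected on at least 3 arrays. Its moderated F test gave miR-574-3p an adjusted p of 3.06e-05, and all 352 passed. The contrast was 2.15 in the sclera (limma adjusted p 0.000621, 237 of 352 passing) and 0.16 in the iris (limma adjusted p 0.764). Undetected values stood there at the lowest signal of their array, from 1.28 (0 D retina) to 9.93 (0 D cornea). The F test and contrasts thus in part set these floors against detected signals. The cornea contrast of 1.57 (limma adjusted p 0.00651, 258 of 352 passing) had 1 detected value of 3. The retina contrast of −2.09 (limma adjusted p 0.000583, 291 of 352 passing) had none. miR-574-3p was detected in all lens groups of the iris, RPE/choroid and sclera, on the −30 D array of the cornea and on the 0 D array of the lens. It was not detected on any array of the retina, SCN or LGN, where the upper limits lay between 5.13 and 10.05. In the sclera its 3 values, 19.5 in normal, 22.6 in 0 D and 17.97 in −30 D mice, lay within a factor of 1.26. In the RPE/choroid they lay within a factor of 2.89 and in the iris within 11.8. The single value in the lens, 6.81 ± 1.84 (array error), came from 1 of 4 probes, and the upper limits on the other 2 lens arrays were 27.0 and 27.8, so that the lens groups cannot be ordered there.

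**Figure D1:**
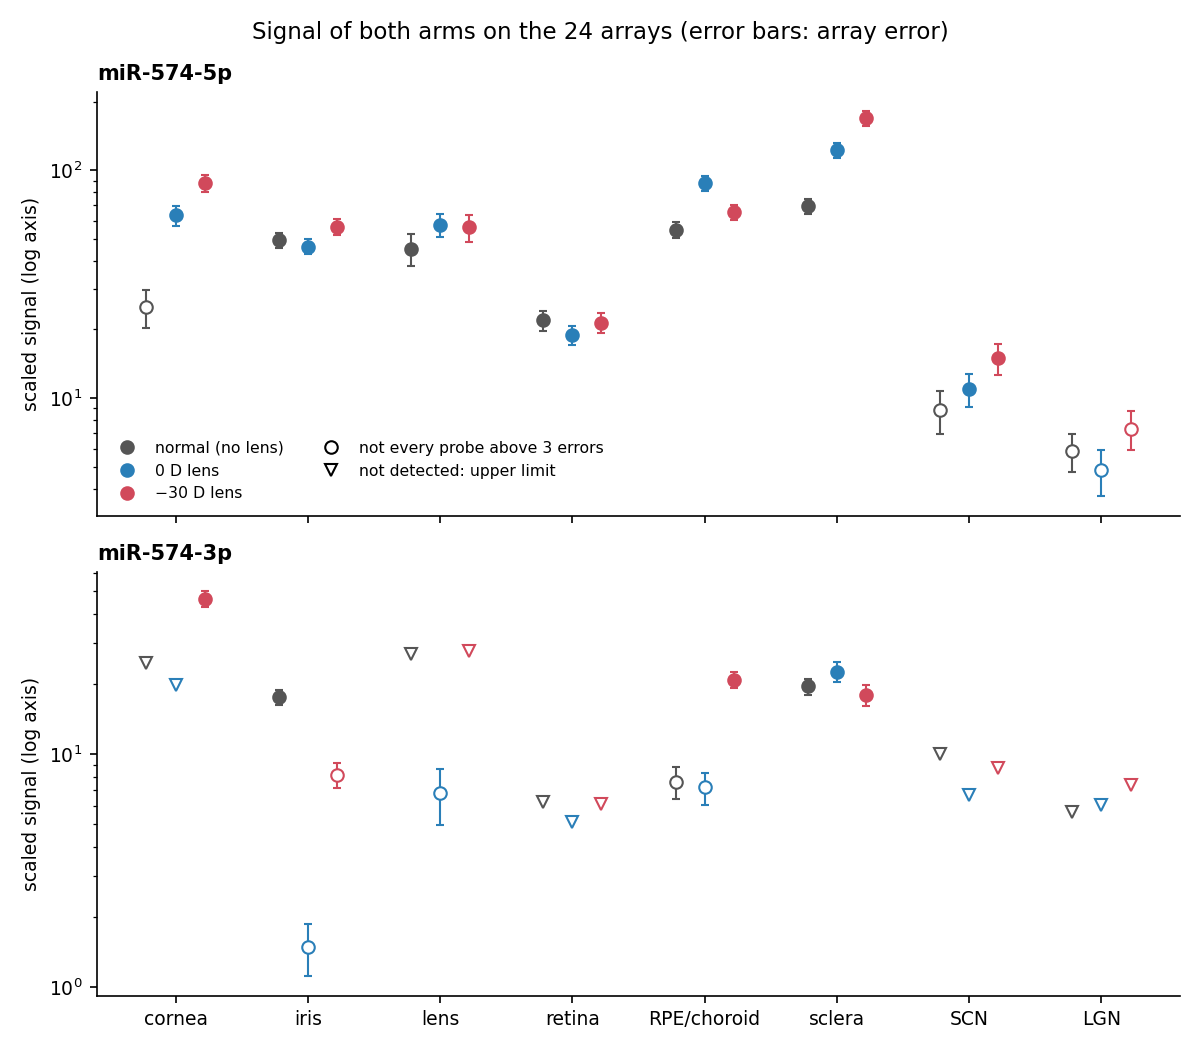
Scaled signal (log axis) of miR-574-5p and miR-574-3p on each of the 24 arrays, by tissue and lens group, with the error the array gives. Open circles are sums over only some of the probes, and triangles are upper limits where the miRNA was not detected. miR-574-5p has a value in all 8 tissues and is highest in the sclera, while miR-574-3p has values on 11 arrays.

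In the iris, the signal of miR-574-3p was 17.6 ± 1.31 (array error) in normal, 1.49 ± 0.37 in 0 D and 8.16 ± 1.03 in −30 D mice. The normal array was the highest, the −30 D array lay between, and the 0 D array was the lowest and rested on 1 of 4 probes. The −30 D/normal log2 ratio was −1.11 ± 0.21, where the error combines those of the probes on the 2 arrays and holds no spread between mice. All 4 probes were lower in −30 D than in normal, with log2 ratios from −1.14 to −0.57. With every probe summed the ratio was −0.88 ± 0.21, and it moved to −0.18 with normexp background correction and to −2.14 with quantile normalization. The 0 D/normal log2 ratio was −3.57 ± 0.38 for the probes above 3 errors and −2.41 ± 0.35 when every probe was summed. All 4 probes were lower on that array too.

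In the RPE/choroid, the signal of miR-574-3p was 7.62 ± 1.16 (array error) in normal, 7.198 ± 1.14 in 0 D and 20.8 ± 1.66 in −30 D mice. The −30 D array stood above both others, which differed by less than their errors. The −30 D/normal log2 ratio was 1.45 ± 0.25, and 1.20 ± 0.24 with every probe summed. It was 0.53 with normexp and 2.74 with quantile normalization. All 4 probes were higher in −30 D, by 1.09 to 1.37 log2 units. The ratio of 0 D to normal was −0.08 ± 0.32, and 0.35 ± 0.30 with every probe summed, since the 0 D sum holds 2 and the normal sum 3 of the 4 probes.

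The lens ratios of miR-574-3p thus ran in opposite directions in the iris and RPE/choroid for the −30 D lens. In the sclera the −30 D/normal log2 ratio was −0.12 ± 0.19 and that of 0 D was 0.21 ± 0.18. In the cornea, miR-574-3p was detected in −30 D mice with all 4 probes, at 46.4 ± 3.54, and not in normal or 0 D mice, where the upper limits were 24.6 and 19.8. This made the −30 D signal at least 1.89-fold higher than normal, the undetected side being set at 3 errors for each probe. All 4 corneal probes were higher in −30 D than in normal.

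**Figure D2:**
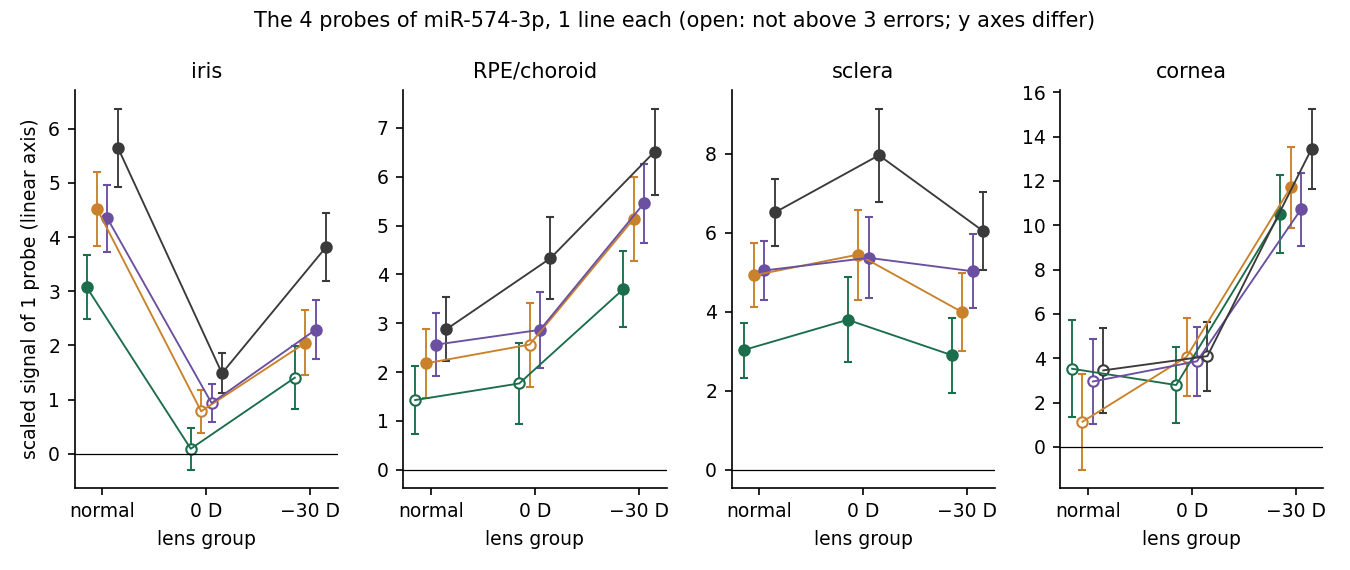
Scaled signal (linear axis) of each of the 4 probes of miR-574-3p in the iris, RPE/choroid, sclera and cornea, by lens group, with the error the array gives and open circles for probes not above 3 errors. In the iris all 4 probes are lower in −30 D than in normal mice, and in the RPE/choroid and cornea all 4 are higher. The y axes differ between the panels.

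miR-574-5p did not share the opposite moves. In the iris its signal was 49.1 ± 3.81 in normal, 46.2 ± 3.54 in 0 D and 56.4 ± 4.42 in −30 D mice, and its −30 D/normal log2 ratio was 0.20 ± 0.16. In the RPE/choroid it was 54.7 ± 4.38, 87.6 ± 6.73 and 65.3 ± 5.10 in the same order, and the 0 D array was the highest. The RPE/choroid log2 ratio was 0.26 ± 0.16 for −30 D and 0.68 ± 0.16 for 0 D.

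The sclera and cornea held the larger ratios of miR-574-5p. In the sclera its signal was 69.7 ± 5.43 in normal, 122 ± 9.34 in 0 D and 169 ± 12.7 in −30 D mice. Both lens arrays stood above normal, by 0.81 ± 0.16 log2 units for 0 D and 1.28 ± 0.16 for −30 D, and both probes were higher in each. In the cornea it was 25.0 ± 4.76 in normal, 63.4 ± 6.51 in 0 D and 88.0 ± 7.55 in −30 D mice, with log2 ratios of 1.34 ± 0.31 for 0 D and 1.81 ± 0.30 for −30 D. The normal corneal sum held only 1 of 2 probes. With both probes summed on every array, the corneal ratios were 0.78 ± 0.29 and 1.25 ± 0.28.

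In the lens, retina, SCN and LGN, the log2 ratios of miR-574-5p were smaller. They were 0.32, −0.03, 0.76 and 0.33 for −30 D, and 0.35, −0.21, 0.31 and −0.28 for 0 D. The value of 0.76 in the SCN was 0.12 ± 0.35 with both probes summed, as the normal array again held 1 of 2 probes. For 0 D the SCN value of 0.31 used the same normal array. With both probes summed it turned to −0.33 ± 0.36, and each probe was lower in 0 D. The 7 ratios besides 0.76 had errors of 0.20 to 0.43.

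**Figure D3:**
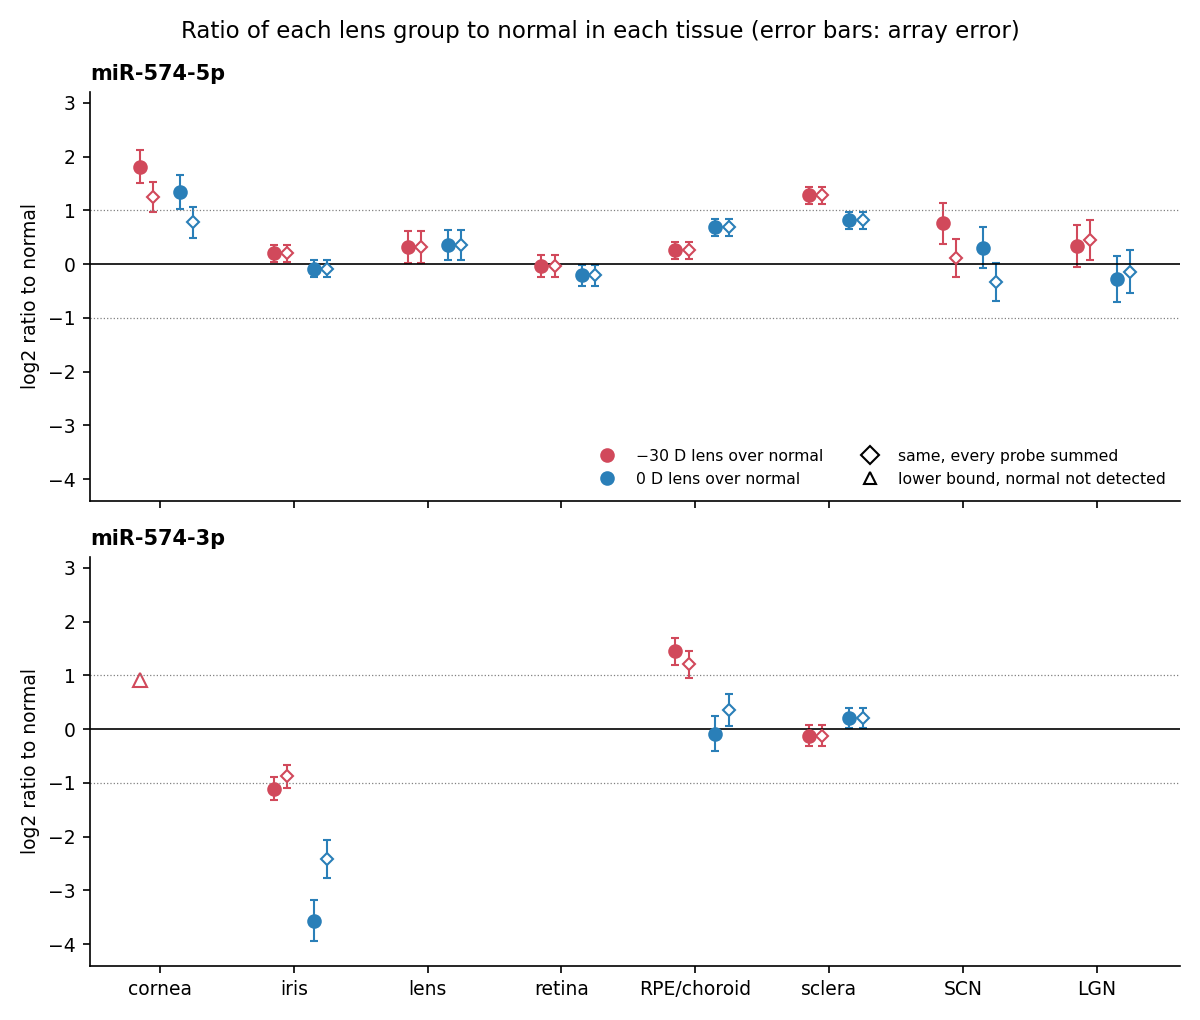
Log2 ratio of the −30 D (red) and 0 D (blue) lens groups to normal in each tissue for both arms, with the propagated array error. Filled circles use the probes above 3 errors, open diamonds every probe, and the triangle is the lower bound in the cornea, where miR-574-3p was not detected in normal mice. miR-574-3p lies at −1.11 (iris) and 1.45 (RPE/choroid) for −30 D, where miR-574-5p lies at 0.20 and 0.26.

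Set against each other within a tissue, the −30 D/normal log2 ratios differed between the arms (3p minus 5p) by −1.31 ± 0.26 for iris tissue, 1.19 ± 0.30 for RPE/choroid and −1.39 ± 0.25 for sclera. The errors again cover the arrays only. For 0 D the differences were −3.48 ± 0.41, −0.76 ± 0.36 and −0.60 ± 0.24. In the iris and RPE/choroid they rest on miR-574-3p sums over unlike numbers of probes. With every probe summed, the 0 D ratios of miR-574-3p were −2.41 ± 0.35 (iris) and 0.35 ± 0.30 (RPE/choroid). Those of miR-574-5p were −0.09 ± 0.16 and 0.68 ± 0.16. For −30 D, miR-574-3p was then at −0.88 ± 0.21 and 1.20 ± 0.24, and miR-574-5p at 0.20 ± 0.16 and 0.26 ± 0.16. Levels of the arms are not compared, since they come from different probes. Over the 24 arrays the log2 signals of the arms correlated with r = 0.82, and with r = 0.39 after the mean of each tissue was taken out. Over the 11 arrays that detected both, r was 0.52. The arrays share tissues and slides, and the 13 undetected values of miR-574-3p stand at the lowest signal of their array, so that these are descriptions only.

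By the ratio limits of the study, a miRNA differs when the ratio is over 2 or under 0.5 with both arrays detecting it, or over 5 or under 0.2 with 1 array detecting it. An undetected miRNA was set here to 0.1. As the lowest detected signal on any array was 1.09, every miRNA detected on 1 of the 2 arrays meets the limits by its detection alone. For −30 D against normal, miR-574-3p met them in the RPE/choroid and cornea (higher, in the cornea by detection alone) and the iris (lower). The iris ratio is no longer under 0.5 with every probe summed (log2 −0.88) or with normexp (−0.18), and with the gene totals printed by the scanner software both directions turn (0.26 for iris, −4.64 for RPE/choroid). The shares given beside each tissue are of the miRNAs detected on at least 1 of its 2 arrays, 139 to 262 miRNAs, that met the limits in either direction. For −30 D they were 14.4% in the RPE/choroid, 33.0% in the cornea and 17.9% in the iris. miR-574-5p met them in the cornea and sclera (28.7%), both higher. Neither arm met them in the lens (12.2%), retina (3.90%), SCN (12.4%) or LGN (16.5%). For 0 D against normal, miR-574-3p met them in the iris (lower, 17.0%) and, by detection alone, in the lens (higher, 17.5%), and miR-574-5p in the cornea (higher, 21.0%). Neither met them in the retina (9.64%), RPE/choroid (12.9%), sclera (22.9%), SCN (14.9%) or LGN (11.6%). Both comparisons share the normal arrays, and the −30 D calls belong to the contrast for which the arms were chosen.

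Markers of other cells moved with some of these ratios. In the RPE/choroid the summed signal of the 3 retina and photoreceptor miRNAs (miR-183-5p, miR-96-5p, miR-182-5p, all detected) was 1436 in normal, 1007 in 0 D and 813 in −30 D mice. That of the 3 neuronal miRNAs was 1184, 884 and 742. miR-574-3p was itself not detected in the retina. The blood cell list, of which 1 of 3 was detected, was 34.2, 41.8 and 59.4. The mesenchyme list (miR-199a-3p and miR-214-3p) was 431, 465 and 423, and the endothelium list 1202, 1030 and 1208 (2, 1 and 2 of 2 detected). In the iris the smooth muscle miRNAs (miR-143-3p and miR-145a-5p) were 319, 324 and 331, the mesenchyme list 106, 112 and 95.8, and the neuronal list 52.6, 16.8 and 32.7. In the sclera the retina list was 1094, 441 and 524, and miR-184-3p of the lens and cornea 123, 111 and 275. The scleral striated muscle list was 74.0, 161 and 121 (2, 3 and 2 of 3 detected), and the endothelium list 393, 387 and 242. In the cornea the neuronal list was 20.2, 26.2 and 44.2 (1, 1 and 2 of 3 detected). The corneal striated muscle list was 31.8, 60.4 and 46.9 (1, 2 and 2 of 3 detected), and the surface epithelium list 1164, 1179 and 957. Sums over unlike numbers of detected miRNAs differ in part through detection. The endothelium list was detected in −30 D cornea alone, at 86.5 with 1 of 2 miRNAs, and the smooth muscle list on no corneal array. The part of these in the ratios of the arms was not tested. In these mixed tissues, fewer cells of a type and less of a miRNA per cell cannot be told apart.

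The miRNAs whose log2 signal followed each arm most closely over the 24 arrays were looked up among those detected on at least 12 arrays. For miR-574-3p these were miR-466f-3p (r = 0.98), miR-466h-3p (0.93), miR-466i-3p (0.92), miR-455-3p (0.89) and miR-6904-5p (0.87), of 197 compared. After the tissue means were taken out, miR-466f-3p kept r = 0.93 and miR-455-3p 0.31. For miR-574-5p they were miR-3082-5p (0.97), miR-466i-5p (0.97), miR-1187 (0.94), miR-6904-5p (0.92) and miR-6918-5p (0.91), of 196 compared, and the first 3 kept 0.91, 0.90 and 0.85 within tissues. Arrays of 1 tissue or slide are shared by all of these, and signals near the detection limit enter at the array's lowest signal.

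Several of these neighbours carry repeats like those of the arm. Those with the longest match and a RefSeq sequence follow, with the longest run of letters shared with the arm in capitals, because their lens ratios are set beside those of the arms.
miR-466i-3p, shared with miR-574-3p: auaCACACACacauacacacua
miR-3082-5p, shared with miR-574-5p: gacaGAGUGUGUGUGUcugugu
miR-1187, shared with miR-574-5p: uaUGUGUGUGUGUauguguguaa
The runs are 7, 12 and 11 bases long. miR-466i-3p lies at chr13:17747552-17747573 (plus strand), miR-3082-5p at chr17:25831406-25831427 (minus strand) and miR-1187 at chr5:82798964-82798986 (minus strand). Not every neighbour is alike in sequence: miR-455-3p and miR-6918-5p share no more than 4 letters in a row with their arm.

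The lens ratios of the neighbours are given next to those of the arms. They were chosen by their correlation with the arm over the same arrays, so that likeness in these ratios follows in part from the choice. miR-466f-3p was 15.8 in normal, 3.85 in 0 D and 10.47 in −30 D iris, with log2 ratios of −2.04 ± 0.24 for 0 D and −0.59 ± 0.19 for −30 D. In the RPE/choroid it was 8.03, 10.8 and 19.4, with 1.28 ± 0.22 for −30 D, and in the cornea 10.4, 17.7 and 60.2. Its lowest array in the iris was thus again 0 D, and its highest in the RPE/choroid and cornea −30 D. For miR-466i-3p the −30 D ratios were −0.44 ± 0.24 (iris) and 0.97 ± 0.27 (RPE/choroid), and for miR-466h-3p −0.03 ± 0.17 and 0.94 ± 0.18. The other two differed from miR-574-3p: miR-455-3p was at −0.47 (iris) and −0.13 (RPE/choroid), and miR-6904-5p at 1.06 ± 0.29 (iris) and 0.72 ± 0.32 (RPE/choroid), higher in the tissue where the arm was lower.

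All 5 neighbours of miR-574-5p were higher in −30 D than in normal sclera, where the arm was at 1.28. The log2 ratio was 1.32 ± 0.16 for miR-3082-5p, 1.74 ± 0.15 for miR-466i-5p, 1.41 ± 0.17 for miR-1187, 1.79 ± 0.24 for miR-6904-5p and 1.504 ± 0.17 for miR-6918-5p. In the RPE/choroid they gave 0.34, 0.21, 0.16, 0.72 and 0.73 in the same order. In the iris, where the arm was at 0.20, they gave 0.07, 0.78, −0.10, 1.06 and 1.08, so that 3 of the 5 stood well above it.

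Array miRNAs with a sequence were also listed by letters alone. The lists still hold neighbours named above, miR-3082-5p and miR-1187 for GU and miR-466i-3p for CA. They are thus not separate from the choice of neighbours. The GU repeat list holds the 9 of 1608 miRNAs (0.560%) with GUGUGUGU or UGUGUGUG, and the CA repeat list the 17 (1.06%) with CACACA or ACACAC, searched on the miRNA strand. Besides the arms, these are 8 and 16 miRNAs, of which 5 and 9 were detected on any array and 1 and 3 on all 24. The neighbours miR-466f-3p, miR-466h-3p and miR-466i-5p had no matched sequence and could enter neither list. The lists are thus not all repeat miRNAs that the array may hold. A match of letters is a description, and the part of sequence likeness in the signals was not tested. A pair of the brighter CA repeat miRNAs show the letters shared with miR-574-3p in capitals.
miR-467f: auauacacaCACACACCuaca
miR-466q: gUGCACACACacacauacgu
They lie at chr11:69635419-69635439 (minus strand) and chr3:28419988-28420007 (plus strand).

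In the CA repeat list without miR-574-3p, the median −30 D/normal log2 ratio was −0.15 over the 5 miRNAs detected on both iris arrays and 0.81 over the 5 detected on both RPE/choroid arrays, beside 0.01 and 0.09 over all miRNAs detected on both. Of 6 detected on either iris array 1 met the limits as lower (25 of 234 among all), and of 6 in the RPE/choroid 1 as higher (30 of 243 among all). Both calls rested on detection alone. The 5 brightest of the list were miR-342-3p (0.08 for iris, 0.19 for RPE/choroid), miR-467f (−0.15 and 0.81), miR-466q (0.22 and 0.93), miR-466i-3p, and miR-362-3p (−0.22 and −0.04). The 3 with miR-466 or miR-467 names thus lay between 0.81 and 0.97 in the RPE/choroid, apart from the other two. None of the 5 was as low in the iris as miR-574-3p. In the cornea the median was 1.15 over 4, of which 3 met the limits as higher, beside a median of −0.05 and 52 of 179 higher among all. For 0 D in the iris the median was −0.96 over 5 and 3 of 6 met the limits as lower, beside a median of −0.04 and 21 of 241 lower among all. Of these 3, miR-466i-3p (−2.08) and miR-467f (−1.29) met them by ratio and the other by detection alone.

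In the GU repeat list without miR-574-5p, the median −30 D/normal log2 ratio was −0.10 over 3 iris miRNAs, 0.27 over 4 in the RPE/choroid and 0.96 over 4 scleral ones, beside −0.18 over all miRNAs in the sclera. In the sclera 2 of 4 met the limits as higher (35 of 247 among all), and in the cornea 3 of 3 (52 of 179 among all), of which 2 were not detected in normal mice and met them by detection alone. The 2 in the sclera were the neighbours miR-3082-5p and miR-1187, which are also among the 3 in the cornea. The list's brightest members were miR-3082-5p, miR-1187, miR-669n (iris −0.59, RPE/choroid 0.20, sclera 0.60), miR-32-3p (RPE/choroid 1.05, sclera −0.79) and miR-672-5p, which was detected on 2 arrays.

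Over the 186 miRNAs detected on all 4 normal and −30 D arrays of the iris and RPE/choroid, 52 had a ratio below 1 in the iris and above 1 in the RPE/choroid. In 2 of the 186 the ratio was under 0.5 in the iris and over 2 in the RPE/choroid. These were miR-574-3p and miR-467a-3p (iris −1.11, RPE/choroid 1.91), which was named after its values were seen. None had the reverse pattern. Ranked by the RPE/choroid minus the iris log2 ratio, miR-574-3p was at rank 3 of 186, which describes the pattern it was chosen for.

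**Figure D4:**
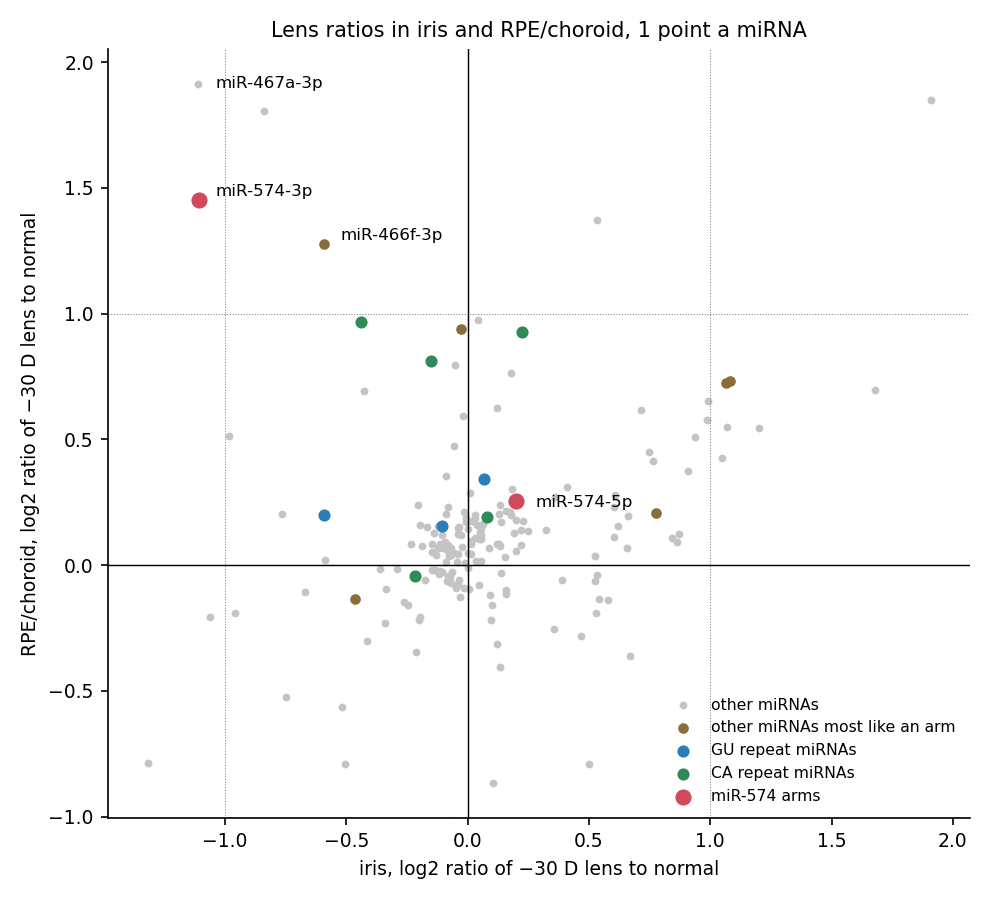
Log2 ratio, −30 D over normal, with the iris on the x axis and the RPE/choroid on the y axis, for the 186 miRNAs detected on all 4 arrays, 1 point each, with dotted lines at a ratio of 2 and 0.5. miR-574-3p lies at −1.11 and 1.45 in the upper left, with miR-467a-3p above it and miR-466f-3p to its right, while miR-574-5p lies near the centre at 0.20 and 0.26. The listed CA repeat miRNAs other than the arm range from −0.04 to 0.97 on the y axis. miRNAs without a matched sequence, such as miR-466f-3p, could not enter that list.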

How the data were processed

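The authors hybridised 100 ng of total RNA to 1-color mouse miRNA arrays and deposited scanner files made with Agilent Feature Extraction 10.7.1.1, whose intensity values are background-subtracted total probe signals with an error. For 52 to 96 detected miRNAs per array, the printed gene total differed from the sum of the probes, so signals were summed anew over unique probes above 3 errors. The deposited normalized table was not used, because its 24 value columns could not be tied to samples. Sums were scaled to the 75th percentile over 79 miRNAs. Undetected miRNAs were set to 0.1 for the ratio limits, and to the lowest detected signal of their array for the main fit and the correlations. Errors of log2 ratios were propagated from the probe errors; 1 array per group allows no test of a lens ratio. Tissue levels were fitted with limma 3.58.1 (R 4.3.3), with tissue and lens group as terms, moderated tests and Benjamini-Hochberg adjustment over 197 miRNAs, and the fit was tested on simulated data. Python 3.11.15, numpy 2.4.6, pandas 2.3.3 and matplotlib 3.10.9 did the rest. Sequences and loci came from RefSeq (GRCm38.p6), and 1608 array names matched a single mature sequence. Named were both arms, the 5 miRNAs most like each by Pearson r, and the 5 brightest of each repeat list. The members and lists were chosen with earlier results of these data known. The number of arrays limits the precision. Alternatives were other scalings, normexp, other probe sums, thresholds, filters and sets of arrays.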

Additional observations from a re-analysis of the deposited data

Results flagged for a closer look

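miR-574-3p had a −30 D/normal log2 ratio of −1.11 (iris) and 1.45 (RPE/choroid), with 1 array a group in each tissue. These stand out because the same contrast runs in opposite directions in 2 tissues. The difference between the tissues was not tested, since neither group has a second array, and it is the pattern for which the arms were chosen.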

How the results depend on the processing

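The −30 D/normal log2 ratio of miR-574-3p in the iris, −1.11, was −1.34 with each array's own 75th percentile of detected miRNAs, −0.41 with the percentile over all spots, −2.14 with quantile normalization, −0.18 with normexp at an offset of 50, −0.88 with every probe summed and 0.26 with the printed gene totals. In the RPE/choroid, 1.45 became 2.74 with quantile normalization, 0.53 with normexp and −4.64 with the printed totals. The printed totals are those that differ from the sum of the probes, as for miR-574-3p in the normal RPE/choroid (743 printed against 11.01 summed, both unscaled). The first 2 scalings add a constant to each array: they put the median over the miRNAs of both iris arrays at −0.22 and 0.71, and relative to that median the ratio was −1.12 under each. For miR-574-5p the ratio in the iris, 0.20, was −0.033 and 0.90 under these scalings, and in the RPE/choroid, 0.26, was 0.068 with quantile normalization. In the cornea its ratios turned to −1.07 (−30 D) and −1.57 (0 D) with the printed totals. With a ratio of 3 in place of 2, the tissues meeting the criteria went from 3 to 1 for miR-574-3p and from 2 to 1 for miR-574-5p with −30 D, and from 1 to 0 for miR-574-5p with 0 D. For 0 D, setting undetected miRNAs at the lowest signal of the array left 1 of 2 tissues for miR-574-3p, and for miR-574-5p no scaling gave 2 and quantile normalization 0.

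The tissue contrasts of miR-574-5p changed sign in the cornea without scaling (−0.19) and among the ocular tissues (−0.033), in the iris among the ocular tissues (−0.082), in the lens under both (−0.88 and −0.0079) and in the retina without scaling (0.022). Without the 0 D arrays the limma contrasts of the cornea, lens and retina (0.59, 0.71 and −0.68) no longer passed, with adjusted p of 0.102, 0.0546 and 0.0620, and without the −30 D arrays those of the cornea and retina (0.47 and −0.64) did not, with 0.153 and 0.0543. The sclera, SCN and LGN contrasts kept their sign and passed under every alternative fitted to them. The deposited table was not run as an alternative. Where the cause of a move is not given above, it was not tested. No paired analysis was possible because groups share only 1 replicate number. Lens ratios are taken within a tissue, however, and over the 8 tissues those of miR-574-5p had a median of 0.32 and were above 0 in 7 for −30 D, with a median of 0.33 and 5 above 0 for 0 D. One of these 5 was the SCN at 0.31, which turned to −0.33 ± 0.36 with both probes summed. The lens ratios carry no test, as the arms were chosen by this contrast. Dim signals limit miR-574-3p most: on 13 arrays only an upper limit exists.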

Other observations

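The −30 D and 0 D arrays can also be set against each other directly. The log2 ratio of −30 D to 0 D of miR-574-3p was 2.46 ± 0.41 (array error) for iris, 1.53 ± 0.26 for RPE/choroid and −0.33 ± 0.21 for sclera, and with every probe summed it was 1.53, 0.85 and −0.33. In the iris the −30 D array was thus below normal and above 0 D, with all 4 probes higher than in 0 D. For miR-574-5p the same ratio lay between −0.42 in the RPE/choroid and 0.61 in the LGN, and was 0.47 ± 0.19 in the cornea and 0.46 ± 0.15 in the sclera. Each array enters 2 of the 3 lens ratios of its tissue, so these values are not independent of those to normal.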
